A study of Drosophila melanogaster with 66 samples.

Results

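Aminoacyl-tRNA synthetases are the enzymes that join each amino acid to its tRNAs, so that every codon is read as the right residue. Animals encode 1 set for the cytosol and a largely separate set, made in the cytosol and imported, for protein synthesis in mitochondria, and both sets are products of nuclear genes. Several cytosolic synthetases sit together in a large complex with scaffold proteins called AIMPs. An egg starts with maternal mRNAs for these enzymes, and the embryo later replaces them with its own transcripts. The members were found by name: a probe set was taken if its single gene symbol was a three-letter amino acid code followed by RS or RS-m, and a gene with several probe sets was represented by that of highest signal in the gradients. There were 29 such genes among 11982 genes named by the array, 15 cytosolic and 14 mitochondrial (symbols ending in -m). All 29 passed the filter on signal described below. The cytosolic members were AlaRS, ArgRS, AsnRS, CysRS, GlnRS, GlyRS, HisRS, IleRS, LeuRS, LysRS, SerRS, ThrRS, TrpRS, TyrRS and ValRS. The mitochondrial members were ArgRS-m, AsnRS-m, AspRS-m, CysRS-m, GluRS-m, IleRS-m, LeuRS-m, MetRS-m, PheRS-m, ProRS-m, SerRS-m, TrpRS-m, TyrRS-m and ValRS-m. In human cells single genes supply glycyl- and lysyl-tRNA synthetase to both compartments, so a symbol without -m need not mean a purely cytosolic enzyme. AspRS, MetRS and AlaRS-m were not analysed here.

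Embryos of the wild-type Drosophila melanogaster strain Canton S were collected over 3 periods, 0-2 hours after egg laying, then 4-6 hours, and last 8-10 hours, which span the handover from maternal to embryonic transcripts. Lysates of whole embryos treated with cycloheximide, which holds ribosomes on mRNA, were sedimented through sucrose, and Affymetrix Drosophila Genome 2.0 arrays gave the RNA of each fraction as an RMA signal on the log2 scale. For each period there were 2 untreated gradients (replicates 1 and 2) with 8 arrays each (1 for pooled fractions 1-5, the others for fractions 6 to 12 singly), 1 gradient lysed with EDTA, which takes ribosomes off mRNA, with 4 arrays, and 2 arrays of unfractionated RNA. All embryos were of the same strain and were lysed whole, so fewer cells of a type and less RNA per cell cannot be told apart.

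The period labels were checked with 5 maternal mRNAs (bcd, osk, gcl, fs(1)Ya and swa), which had a median signal of 11.57 on the log2 scale at 0-2 hours and of 6.88 at 4-6 hours. Among mRNAs of later tissues, elav, repo and btl were higher at 8-10 than at 0-2 hours, and nSyb was between 5.07 and 5.29 on all 6 unfractionated arrays. The maternal mRNAs were not equally low on both arrays of 4-6 hours: osk had 5.95 in replicate 1 and 8.43 in replicate 2. As a measure of background, 125 probe sets of odorant and gustatory receptors had 95th percentiles of 4.71, 4.62 and 4.39 over the 3 periods.

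Ribosomal occupancy is here the part of an mRNA's signal, taken off the log scale, that lay in fractions 6-12, as a percentage of the gradient. The pooled fractions 1-5 were weighted by 5, as the pool held their average. An mRNA with equal signal on every array has an occupancy of 58.3%, and receptor probe sets had medians of 57.5%, 56.2% and 57.1%. At 0-2 hours the synthetase mRNAs were loaded less than most. Cytosolic members had a mean occupancy of 49.8% ± 1.68 (SD, n = 2 gradients) and mitochondrial members one of 49.1% ± 2.18, while the median of 8006 tested genes was 59.1%. In all, 10 of 15 cytosolic and 11 of 14 mitochondrial mRNAs lay below that median. By 4-6 hours the means had become 63.9% ± 0.0597 and 63.8% ± 0.319, against a median tested gene of 62.3%, and at 8-10 hours they were 66.3% ± 5.14 and 63.6% ± 1.95, against 62.7%. Then 3 of 15 cytosolic and 4 of 14 mitochondrial mRNAs lay below the median.

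The study's methods also class an mRNA as preferentially untranslated or translated from its profile. The study did so after a filter on release by EDTA, which was not applied here. It reports its own untranslated class at 0-2 hours as enriched for the gene annotation term amino acid activation. At 0-2 hours 6 cytosolic and 8 mitochondrial members were in the untranslated class, which held 17.0% of the tested probe sets, and no member was in the translated class, which held 10.5%. At 4-6 hours ArgRS, SerRS and TrpRS were in the translated class (5.69% of probe sets) and LysRS and TyrRS in the untranslated class (6.46%). At 8-10 hours ArgRS alone of the members was in the former (5.01%), and LysRS and TyrRS were again in the latter (6.10%). No mitochondrial member was in either class at 4-6 or at 8-10 hours.

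**Figure D1:**
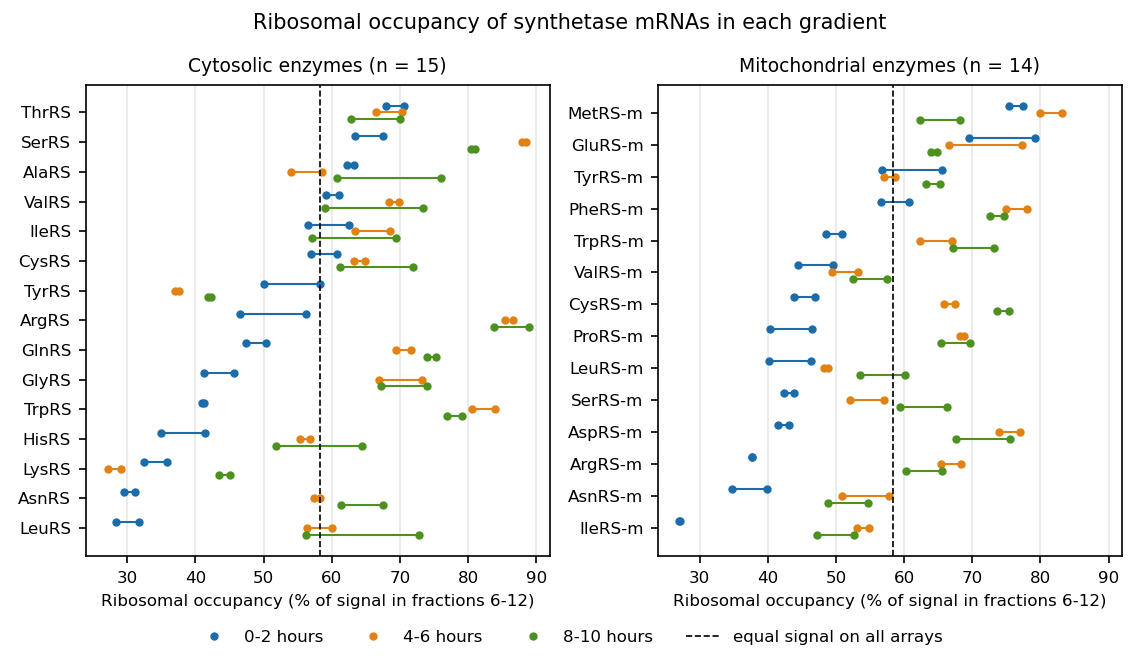
Ribosomal occupancy (percentage of signal in fractions 6-12) of the 29 synthetase mRNAs; each point is 1 gradient, a line joins the 2 gradients of a period, colours mark the period, genes are ordered by their mean at 0-2 hours, and the dashed line is the value for equal signal on all arrays (58.3%). TrpRS moved from 41.3 and 41.0% at 0-2 hours to 84.0 and 80.6% at 4-6 hours, while TyrRS moved the other way, from 50.1 and 58.2% to 37.0 and 37.6%.

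From 0-2 to 4-6 hours the occupancy of 17 of the 29 synthetase mRNAs rose and that of 1, TyrRS, fell, in limma's test at a Benjamini-Hochberg adjusted p below 0.05. Among all tested probe sets 26.3% rose and 19.7% fell. The risers were 8 of 15 cytosolic members (ArgRS, AsnRS, GlnRS, GlyRS, HisRS, LeuRS, SerRS and TrpRS) and 9 of 14 mitochondrial members (ArgRS-m, AsnRS-m, AspRS-m, CysRS-m, IleRS-m, PheRS-m, ProRS-m, SerRS-m and TrpRS-m). Change was tested on the Logit, the natural logarithm of the share in fractions 6-12 over that in fractions 1-5. The median Logit change was 0.73 over cytosolic and 0.66 over mitochondrial members, and 0.03 over all tested genes. The study's filter on release by EDTA was not applied to these calls. Of the 17 risers only ArgRS, SerRS, TrpRS and AspRS-m were called higher in fractions 1-5 with EDTA at 4-6 hours, as given below.

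TrpRS, which charges tRNAs with tryptophan, changed the most of the members from 0-2 to 4-6 hours. Its occupancy was 41.3 and 41.0% in the 2 gradients of 0-2 hours, 84.0 and 80.6% at 4-6 hours, and 76.9 and 79.0% at 8-10 hours. Early and later gradients did not overlap, and the Logit rose by 1.90 ± 0.18 (SE) from 0-2 to 4-6 hours (adjusted p = 9.73e-07). TrpRS had 3 probe sets: another strong one had mean occupancies of 47.2%, 80.2% and 77.4%, and the third, with a mean log2 signal of 4.45 over the gradients and so near the receptors' level, had 59.3%, 48.5% and 51.9%.

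ArgRS, the arginine enzyme and in animals a part of the multi-synthetase complex, followed with 46.6 and 56.2% at 0-2 hours, 86.6 and 85.4% at 4-6 hours, and 83.8 and 88.9% at 8-10 hours. Its Logit rose by 1.76 ± 0.20 (adjusted p = 4.79e-06), and in the later periods it stood at percentiles 97.8 and 98.3 of tested genes. SerRS, the serine enzyme, was already above the median at 0-2 hours, with 63.5 and 67.5%. It reached 88.5 and 87.9% at 4-6 hours, the 98.9th percentile of tested genes, and had 80.4 and 81.0% at 8-10 hours. The Logit of SerRS rose by 1.37 ± 0.17 in the first interval (adjusted p = 1.2e-05).

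LeuRS and AsnRS started as the least loaded cytosolic members. LeuRS, of the same complex, had 31.8 and 28.4% at 0-2 hours, 60.0 and 56.3% at 4-6 hours, and 56.2 and 72.8% at 8-10 hours. AsnRS had 29.5 and 31.1%, then 58.3 and 57.4%, then 61.3 and 67.5%. Both rose in the first interval (Logit changes of 1.17 ± 0.22 and 1.15 ± 0.18, adjusted p = 0.000351 and 6.95e-05), but only to the 36.3rd and 35.2nd percentiles of tested genes. LeuRS had the largest gap between gradients of any member, 16.6 percentage points at 8-10 hours, where members' gaps had a median of 5.83 points against 3.41 and 2.96 points in the earlier periods.

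GlyRS, the glycine enzyme, had 41.2 and 45.6% at 0-2 hours and 66.9 and 73.2% at 4-6 hours (Logit change 1.12 ± 0.19, adjusted p = 0.000164). GlnRS, another complex member, had 47.4 and 50.3%, then 69.4 and 71.6% (0.92 ± 0.17, adjusted p = 0.000378). HisRS had 41.4 and 35.0%, then 56.8 and 55.4%. At 8-10 hours GlyRS was at 67.2 and 74.0%, GlnRS at 74.0 and 75.3%, and HisRS at 51.8 and 64.4%. The HisRS rise (0.73 ± 0.20, adjusted p = 0.00678) did not pass without replicate 2 of 0-2 hours (adjusted p = 0.0673) or without replicate 1 of 4-6 hours (adjusted p = 0.0585), and the other 7 cytosolic rises passed without any 1 gradient.

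TyrRS was the only member whose occupancy fell past the threshold in the first interval. Its occupancy was 50.1 and 58.2% at 0-2 hours, 37.0 and 37.6% at 4-6 hours, and 42.3 and 41.9% at 8-10 hours. Both later pairs lay below both early gradients, and at 4-6 hours TyrRS stood at percentile 1.74 of tested genes. The Logit fell by 0.69 from 0-2 to 4-6 hours (SE 0.18, adjusted p = 0.00495) and by 0.49 from 0-2 to 8-10 hours (adjusted p = 0.0345). Without replicate 2 of 0-2 hours the first fall had an adjusted p of 0.0628. The second passed only without replicate 1 of 0-2 hours and was lost without any other single gradient (adjusted p from 0.0583 to 0.252). It was also lost with the replicate number as a block (0.0516), with the receptors' background subtracted (0.076), with each array centred on its median (0.069) and with fractions 6 and 7 counted as non-polysomal (0.248).

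LysRS, the lysine enzyme, was poorly loaded throughout. Its occupancy was 32.5 and 35.8% at 0-2 hours, 29.1 and 27.2% at 4-6 hours, and 45.1 and 43.4% at 8-10 hours. At 4-6 hours it was at percentile 0.4 of tested genes, the lowest of all members. It was the only member whose occupancy rose from 4-6 to 8-10 hours (Logit change 0.71 ± 0.17, adjusted p = 0.0232), a call lost without any 1 of the 4 gradients compared (adjusted p from 0.0592 to 0.221).

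The 5 remaining cytosolic members did not pass a test of occupancy. ThrRS, the best loaded of the cytosolic members at 0-2 hours, had 68.0 and 70.7%, then 70.2 and 66.5%, then 62.9 and 70.0%, with overlapping groups. AlaRS had 62.2 and 63.3%, then 54.0 and 58.5%, then 60.7 and 76.0%. ValRS (61.0 and 59.2%, then 69.8 and 68.4%, then 59.0 and 73.5%), IleRS (56.5 and 62.5%, then 63.5 and 68.5%, then 57.1 and 69.5%) and CysRS (57.0 and 60.7%, then 64.9 and 63.2%, then 61.2 and 71.9%) had higher means at 4-6 than at 0-2 hours without passing. In all 5 replicate 2 was the higher gradient at 8-10 hours, as in every other member but LysRS, TyrRS, GluRS-m, MetRS-m and SerRS-m.

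Among mitochondrial enzymes, AspRS-m rose the most. It had 41.5 and 43.1% at 0-2 hours, 77.0 and 73.9% at 4-6 hours, and 67.7 and 75.6% at 8-10 hours (first interval, Logit change 1.44 ± 0.19, adjusted p = 1.53e-05). IleRS-m, the least loaded of all members at 0-2 hours, had 27.2 and 27.0%, then 53.1 and 54.9%, then 47.2 and 52.6%. Its Logit rose by 1.15 ± 0.17 (adjusted p = 5.91e-05), yet it stayed below the median gene in every period.

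ArgRS-m had 37.7 and 37.8% at 0-2 hours, 65.3 and 68.3% at 4-6 hours, and 60.2 and 65.6% at 8-10 hours. ProRS-m had 40.4 and 46.5%, then 68.2 and 68.8%, then 65.4 and 69.7%. Both rose by a little over 1 Logit unit in the first interval (1.20 ± 0.18 and 1.04 ± 0.18, adjusted p = 4.45e-05 and 0.000182). CysRS-m (43.9 and 46.9%, then 67.5 and 65.9%, then 73.7 and 75.4%) and PheRS-m (56.6 and 60.8%, then 78.0 and 75.0%, then 72.6 and 74.7%) also rose in that interval (0.88 ± 0.17 and 0.83 ± 0.18, adjusted p = 0.000549 and 0.00104). PheRS-m is known as a single-chain enzyme, unlike the cytosolic enzyme for phenylalanine, which has alpha and beta subunits.

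The rises of AsnRS-m, TrpRS-m and SerRS-m were smaller and were lost when a gradient was left out. AsnRS-m had 34.8 and 40.0%, then 57.7 and 50.9%, then 48.9 and 54.8% (Logit change 0.69 ± 0.19, adjusted p = 0.0059, and 0.0573 without replicate 1 of 0-2 hours or 0.092 without replicate 1 of 4-6 hours). TrpRS-m had 48.5 and 50.9%, then 62.4 and 67.0%, then 67.1 and 73.2% (0.62 ± 0.18, adjusted p = 0.0105, and 0.0606 without replicate 1 of 0-2 hours or 0.113 without replicate 2 of 4-6 hours). The TrpRS-m mRNA was low on the unfractionated arrays of 4-6 hours (4.98 and 5.34). SerRS-m had 42.5 and 43.8%, then 52.1 and 57.1%, then 66.3 and 59.4%. Its change of 0.46 ± 0.18 (adjusted p = 0.0489) was lost without any 1 of those 4 gradients (adjusted p from 0.0847 to 0.272) and when the receptors' background was subtracted (0.169). At 4-6 hours SerRS-m gave 4.45 and 5.30 on the unfractionated arrays, around the receptors' 95th percentile of 4.62, and its mean occupancy was 54.6% where the receptors' median was 56.2%.

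MetRS-m and GluRS-m were the well-loaded mitochondrial mRNAs at 0-2 hours. MetRS-m had 75.4 and 77.5%, then 83.2 and 79.9%, then 68.2 and 62.3%. Its Logit fell by 0.86 from 4-6 to 8-10 hours (adjusted p = 0.00966), the sole fall in that interval, and by 0.55 from 0-2 to 8-10 hours (adjusted p = 0.0197). The MetRS-m mRNA itself dropped to 5.43 and 5.37 by then, and with the receptors' background subtracted these falls had adjusted p of 0.0647 and 0.105. The first was also lost without replicate 1 of 4-6 hours (0.17), replicate 2 of 4-6 hours (0.0606) or replicate 2 of 8-10 hours (0.0698), and the second without replicate 2 of 0-2 hours (0.0956) or replicate 2 of 8-10 hours (0.117). GluRS-m, which charges tRNAs for glutamate, had 69.5 and 79.2%, then 66.6 and 77.4%, then 64.8 and 63.9%, and passed no test of occupancy. Its unfractionated signal was down to 4.85 and 5.05 at 8-10 hours.

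TyrRS-m had 56.8 and 65.5%, then 57.0 and 58.6%, then 63.2 and 65.2%. ValRS-m had 44.5 and 49.6%, then 53.3 and 49.5%, then 52.5 and 57.6%. Neither passed a test of occupancy. LeuRS-m had 46.4 and 40.3%, then 48.2 and 48.8%, then 53.5 and 60.1%, and rose only over the whole span (Logit change 0.54 ± 0.18, adjusted p = 0.0204, and 0.143 without replicate 2 of 0-2 hours or 0.124 without replicate 2 of 8-10 hours).

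Most of the change was over by 4-6 hours. Between 4-6 and 8-10 hours 1 member rose (LysRS) and 1 fell (MetRS-m), where 3.48% of probe sets rose and 2.78% fell. Neither call was kept without replicate 1 or 2 of 4-6 hours or replicate 2 of 8-10 hours, each of which left 0 members called. Between 0-2 and 8-10 hours 18 members rose and 2 fell, against 28.7% and 20.8% of probe sets. The 18 were the 17 risers of the first interval and LeuRS-m, and the median Logit change was 0.79 over all 29 against 0.09 over all tested genes. In this contrast ArgRS changed the most of the members (1.803 ± 0.20, adjusted p = 3.54e-06), and TrpRS had 1.62 ± 0.18 (adjusted p = 2.98e-06). AsnRS had 1.43 ± 0.18 (adjusted p = 9.33e-06), LeuRS 1.46 ± 0.22 (adjusted p = 4.76e-05) and CysRS-m 1.26 ± 0.17 (adjusted p = 2.24e-05).

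The cytosolic and mitochondrial enzymes were close in mean occupancy. The mean over cytosolic members minus that over mitochondrial members came to 0.764 ± 0.504 points at 0-2 hours (mean and SD of 2 gradients). At 4-6 hours it came to 0.117 ± 0.378 and at 8-10 hours to 2.68 ± 3.19 points. These are descriptions, since members are not replicates and 2 gradients against 2 can reach no exact permutation p below 0.333. Counting fractions 6 and 7 as non-polysomal gave differences of 2.56, 4.45 and 5.97 points, counting the pool once gave 0.478, -0.857 and 0.626, and subtracting the receptors' background gave 1.24, -0.512 and 1.52.

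Both a cytosolic and a mitochondrial member were measured for 9 amino acids, and several of these pairs lay far apart. The cytosolic mRNA was the better loaded in both gradients for 5 of 9 pairs at 0-2 hours and for 7 of 9 in each later period. For serine the gap was 22.4 ± 1.91 points at 0-2 hours, then 33.6 ± 3.96, then 17.9 ± 5.31. For isoleucine it was 32.4 ± 4.34 points at 0-2 hours and 12.0 ± 2.31 at 4-6 hours.

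For leucine, asparagine and tryptophan the order turned. LeuRS was 13.2 points below LeuRS-m at 0-2 hours (difference -13.2 ± 1.91) and 9.62 ± 3.01 points above it at 4-6 hours. For tryptophan the differences were -8.59 ± 1.91 and 17.6 ± 5.69 points, and for asparagine -7.05 ± 2.53 and 3.52 ± 4.22 points, the asparagine pair differing by 12.6 ± 0.219 points at 8-10 hours. The tyrosine pair went the other way, with TyrRS below TyrRS-m by a growing margin: -7.02 ± 0.382, -20.5 ± 0.734 and -22.1 ± 1.76 points. CysRS was 13.4 ± 0.492 points above CysRS-m at 0-2 hours and differed from it by -2.65 ± 0.0745 and -7.97 ± 6.41 points later. ArgRS was above ArgRS-m by 13.7 ± 6.79, 19.2 ± 2.94 and 23.4 ± 0.204 points, and ValRS above ValRS-m by 13.1 ± 4.87, 17.7 ± 1.65 and 11.2 ± 6.68 points.

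The amounts of these mRNAs mostly moved down while loading moved up. On the unfractionated arrays 22 of 29 members fell and 2 rose from 0-2 to 4-6 hours, where 24.6% of probe sets fell and 25.9% rose. The median change was -0.99 on the log2 scale over cytosolic and -1.11 over mitochondrial members, against 0.07 over all tested genes. Without replicate 1 of 4-6 hours, the array with the lower maternal mRNAs, 14 fell and 1 rose, and without replicate 2, 16 fell and 1 rose. The part of the maternal mRNAs' difference between these arrays in the counts was not tested.

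The deepest falls were in mitochondrial enzymes. SerRS-m had signals of 8.36 and 8.71 at 0-2 hours, 4.45 and 5.30 at 4-6 hours, and 5.12 and 5.49 at 8-10 hours, from well above background to close to it. TrpRS-m had 8.23 and 7.98, then 4.98 and 5.34, then 5.73 and 5.96. ValRS-m had 8.25 and 9.05, then 5.89 and 5.62, then 5.66 and 5.92. IleRS-m had 7.51 and 9.15, then 5.78 and 5.74, then 5.79 and 5.92, with a wide gap between the early arrays. The log2 changes to 4-6 hours were -3.66 ± 0.32 for SerRS-m (adjusted p = 0.000651), -2.94 ± 0.20 for TrpRS-m (0.000328), -2.90 ± 0.30 for ValRS-m (0.00093) and -2.57 ± 0.52 for IleRS-m (0.00948).

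Among cytosolic members CysRS fell the most in this interval, from 8.68 and 8.70 to 6.97 and 7.19 (log2 change -1.61 ± 0.16, adjusted p = 0.000868). It was followed by LeuRS, from 9.35 and 9.19 to 7.57 and 7.83 (-1.57 ± 0.16, adjusted p = 0.000954). IleRS and ThrRS were the cytosolic members with no change past the threshold, and MetRS-m, PheRS-m and ProRS-m the mitochondrial ones.

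TyrRS and AspRS-m were the members that rose. TyrRS mRNA had 8.79 and 8.99 at 0-2 hours, 10.23 and 10.33 at 4-6 hours, and 9.62 on both arrays of 8-10 hours. It rose by 1.39 ± 0.14 in the first interval (adjusted p = 0.00093) while its occupancy fell, and fell by 0.66 in the second (adjusted p = 0.0215). AspRS-m had 8.93 and 8.09, then 9.60 and 9.49, then 8.67 and 8.49. AspRS-m was thus the member whose mRNA and occupancy both rose (log2 change 1.04 ± 0.29, adjusted p = 0.0319), though the rise in amount had an adjusted p of 0.138 without replicate 1 of 4-6 hours and 0.107 without replicate 2, and was lost without either array of 8-10 hours (0.0619 in each case).

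**Figure D2:**
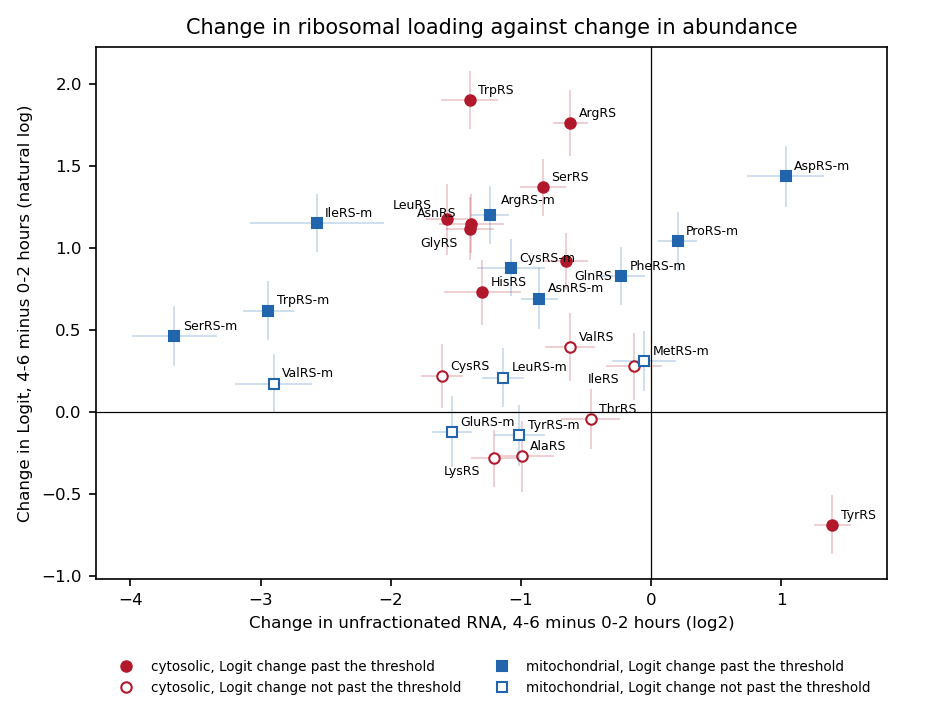
Change in Logit (vertical, natural log) against change in unfractionated RNA (horizontal, log2) from 0-2 to 4-6 hours for the 29 members; bars are standard errors from limma and filled symbols mark Logit changes past the threshold. Most filled symbols lie at upper left, with more loading and less mRNA, AspRS-m and ProRS-m lie at upper right, and TyrRS (1.39, -0.69) lies alone at lower right.

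In this interval 14 members, 8 cytosolic and 6 mitochondrial, rose in occupancy while their mRNA fell, and all 8 cytosolic risers were among them. Of the 15 cytosolic members 12 fell in abundance. The joint count was not made over all tested probe sets, of which 26.3% rose in occupancy and 24.6% fell in abundance. Across the 29 members the change in Logit and the change in abundance had a Pearson r of -0.06, and across the 8006 tested genes one of -0.36. Genes are not independent replicates, and the 2 changes come from separate arrays, of gradients and of unfractionated RNA.

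From 4-6 to 8-10 hours the mRNAs of several cytosolic enzymes were higher again. ArgRS, GlyRS, LeuRS, SerRS and TrpRS rose, as did CysRS-m, PheRS-m and TrpRS-m, and TyrRS, GluRS-m, MetRS-m and ProRS-m fell. Against these 8 rises and 4 falls, 16.2% of probe sets rose and 14.1% fell. GlyRS had 9.62 and 9.74 at 0-2 hours, 8.10 and 8.48 at 4-6 hours, and 9.80 and 9.98 at 8-10 hours, a rise of 1.60 ± 0.18 (adjusted p = 0.00353). LeuRS returned part of the way, to 8.61 and 8.77 (0.99 ± 0.16, adjusted p = 0.00916). MetRS-m dropped from 7.53 and 7.43 to 5.43 and 5.37 (-2.08 ± 0.24, adjusted p = 0.00364).

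PheRS-m had 8.33 and 8.66, then 8.16 and 8.37, then 9.21 and 9.38, the latter above all earlier arrays. It rose by 1.03 ± 0.18 in this interval (adjusted p = 0.0115), and CysRS-m, from 5.81 and 5.78 to 6.67 and 6.86, by 0.97 ± 0.26 (adjusted p = 0.0421). With the replicate number as a block, TrpRS-m was not called (adjusted p = 0.0579), and AsnRS rose (0.048) and AspRS-m fell (0.0327). These calls leaned on single arrays: without replicate 1 or 2 of 4-6 hours 3 and 4 members were called, and without replicate 1 or 2 of 8-10 hours 2 in each case.

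Over the whole span, cytosolic and mitochondrial mRNAs parted in amount. From 0-2 to 8-10 hours 5 of 15 cytosolic members fell and 1, TyrRS, rose, while 11 of 14 mitochondrial members fell and 1, PheRS-m, rose. Among all tested probe sets 27.1% fell and 27.2% rose. The median log2 change was -0.40 over cytosolic and -1.28 over mitochondrial members, and the difference between the classes was not tested. The cytosolic members that fell were CysRS, GlnRS, HisRS, LeuRS and LysRS, and with the replicate block AsnRS and TrpRS as well (adjusted p = 0.0207 and 0.0308). The largest falls of the mitochondrial members were -3.23 ± 0.32 for SerRS-m (adjusted p = 0.000731), -2.85 ± 0.30 for ValRS-m (0.000827) and -2.48 ± 0.52 for IleRS-m (0.0101), followed by -2.26 ± 0.20 for TrpRS-m (0.000462) and -2.13 ± 0.24 for MetRS-m (0.00113). Of all members, 18 were called in this span, and 11 without replicate 1 of 8-10 hours.

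**Figure D3:**
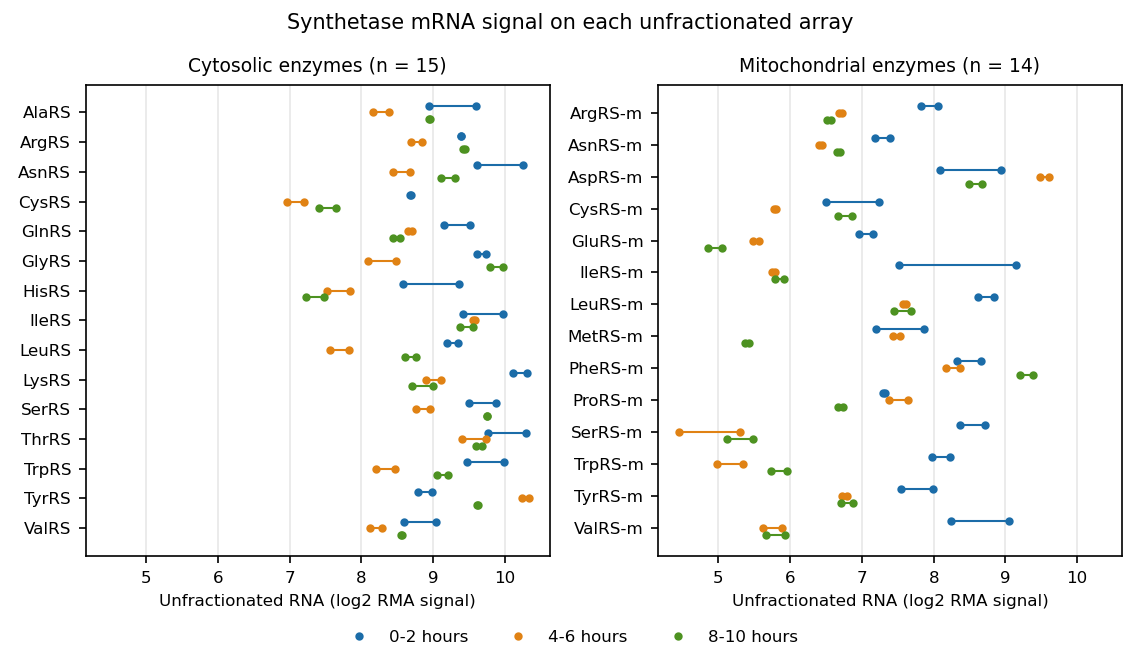
Signal of each synthetase mRNA on the unfractionated arrays (log2 RMA signal, each point 1 array, 2 arrays per period joined by a line, genes in alphabetical order from the top); positions on the axis compare periods within a gene, not genes. GlyRS dips at 4-6 hours and returns, TyrRS peaks at 4-6 hours, and SerRS-m drops from 8.36 and 8.71 to 4.45 and 5.30.

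Occupancy says how much of an mRNA's signal lay in fractions 6-12, called polysomal here. The placement of signal within those fractions says how heavy its complexes were. The study states that its EDTA assay could not separate translating complexes from ribosome-containing particles of mRNA and protein. The share of polysomal signal (fractions 6-12) that lay in the heavy fractions 10-12 is 42.9% for a flat profile. Cytosolic synthetase mRNAs lay in heavier fractions than mitochondrial ones. Their mean share (± SD of 2 gradients) was 54.7% ± 0.322 at 0-2 hours, then 62.3% ± 3.07, and by 8-10 hours 66.2% ± 1.42. That of mitochondrial members was 45.6% ± 1.05, 49.0% ± 3.14 and 53.0% ± 1.34, and that of all tested genes 42.7%, 43.5% and 44.4%. Receptor probe sets, at background, had 43.7%, 42.4% and 43.4%, close to the flat value. Mitochondrial members had the lower mean unfractionated signal, 7.94, 6.65 and 6.58 against 9.44, 8.59 and 8.97 for cytosolic ones. The study reported longer open reading frames, on average, for mRNAs of heavier fractions, and the members' lengths were not used here. The parts of low signal and of reading frame length in the differences between classes, pairs and members were not tested. The cytosolic mRNA was the heavier in both gradients for 7 of 9 pairs of the same amino acid in each period.

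The widest pair was serine. SerRS had 69.9 and 70.8% of its polysomal signal in fractions 10-12 at 0-2 hours, 76.1 and 77.9% at 4-6 hours, and 76.4 and 74.1% at 8-10 hours, at percentiles 98.3, 99.7 and 98.4 of tested genes. SerRS-m had 30.6 and 36.5%, then 38.7 and 38.1%, then 34.6 and 32.3%, below the flat value throughout, though from 4-6 hours on its mRNA was near background. The arginine pair was nearly as far apart, ArgRS with 60.5 and 62.1%, then 69.0 and 72.7%, then 73.4 and 75.0%, and ArgRS-m with 32.8 and 36.3%, then 36.4 and 36.0%, then 41.2 and 35.4%.

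Other pairs were closer. For isoleucine the cytosolic share exceeded the mitochondrial one by 23.9 ± 1.76 points at 0-2 hours and by 9.06 ± 4.37 at 8-10 hours, for cysteine by 15.5 ± 1.03 and 13.3 ± 9.07, for asparagine by 12.6 ± 1.96 and 22.1 ± 5.1, and for valine by 11.5 ± 1.08 and 11.9 ± 6.55. Tryptophan was reversed at 0-2 hours, TrpRS-m with 64.0 and 62.1% and TrpRS with 44.9 and 47.0% (difference -17.1 ± 2.90 points). At 4-6 hours the 2 gradients of this pair differed in sign (10.2 and -6.59 points), and at 8-10 hours TrpRS was again lower in both (-3.65 and -22.2 points). Leucine was reversed at 0-2 hours only (-7.42 ± 2.57 points, then 6.02 ± 1.45 and 8.48 ± 6.28). The tyrosine pair differed by 5.75 ± 1.16 points at 0-2 hours and by less than the spread of gradients later.

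**Figure D4:**
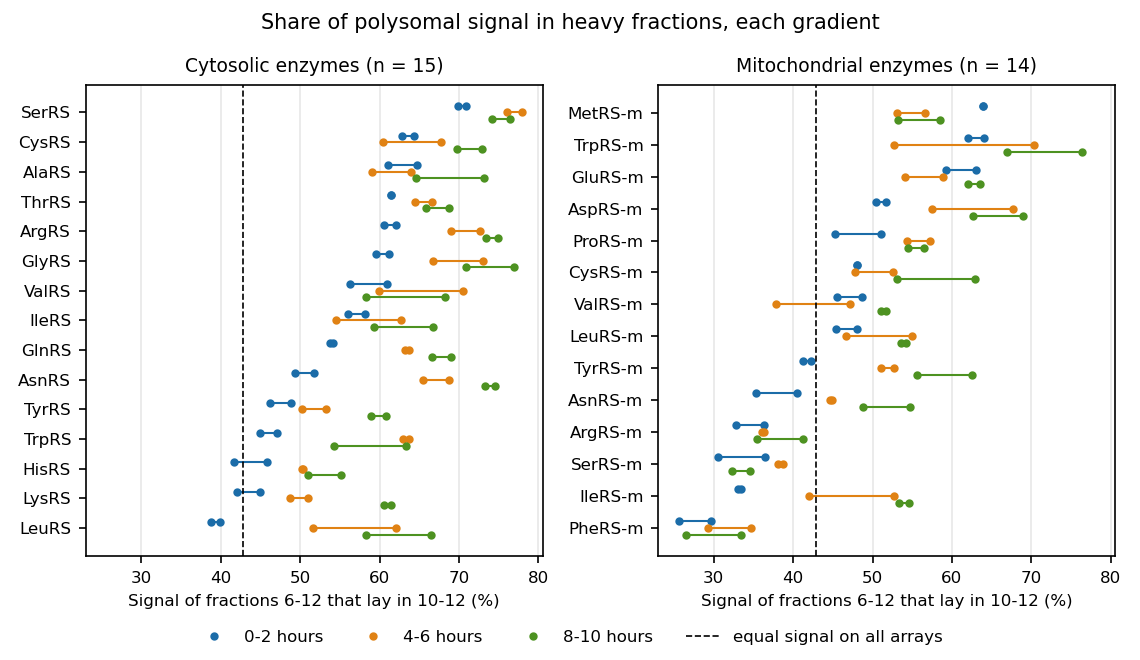
Share of the signal of fractions 6-12 that lay in fractions 10-12 (percent) for each synthetase mRNA; each point is 1 gradient, lines join the 2 gradients of a period, and the dashed line is the flat value (42.9%). Cytosolic members lie mostly to the right of the line and move further right over the periods, with means of 54.7, 62.3 and 66.2%.

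From 0-2 to 4-6 hours 3 of 29 members (AsnRS, LeuRS and TrpRS) moved into heavier fractions and none into lighter ones. Of all tested probe sets 7.43% rose and 3.30% fell in the logarithm of the ratio of fractions 10-12 over 6-9. AsnRS went from 49.3 and 51.7% to 65.5 and 68.7% of its polysomal signal in fractions 10-12, and its log ratio rose by 0.69 ± 0.13 (adjusted p = 0.015). LeuRS went from 38.8 and 39.9% to 51.6 and 62.0% (0.71 ± 0.18, adjusted p = 0.0437), and TrpRS from 44.9 and 47.0% to 62.9 and 63.8% (0.71 ± 0.15, adjusted p = 0.0245). Without replicate 1 or 2 of 0-2 hours or replicate 2 of 4-6 hours none of these passed, and without either gradient of 8-10 hours 6 members did.

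By 8-10 hours 12 members were heavier than at 0-2 hours and none lighter, against 13.9% and 7.12% of probe sets. They were ArgRS, AsnRS, GlnRS, GlyRS, LeuRS, LysRS, TrpRS and TyrRS, and AsnRS-m, AspRS-m, IleRS-m and TyrRS-m. The largest changes in the log ratio were 1.02 ± 0.13 for AsnRS (adjusted p = 0.00221), 0.94 ± 0.18 for LeuRS (0.00961), 0.85 ± 0.16 for IleRS-m (0.00881), 0.71 ± 0.12 for LysRS (0.00694) and 0.70 ± 0.14 for TyrRS-m (0.011). LysRS had 42 and 44.9% of its polysomal signal in fractions 10-12 at 0-2 hours and 60.5 and 61.5% at 8-10 hours, IleRS-m 33.0 and 33.5% and then 53.3 and 54.5%, and TyrRS-m 41.2 and 42.2% and then 62.5 and 55.6%. TyrRS and LysRS were thus heavier within polysomes at 8-10 hours than at 0-2 hours, while they were the least loaded members then.

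Only AsnRS still passed in this span without replicate 1 or without replicate 2 of 0-2 hours. Between 4-6 and 8-10 hours limma called 0 members, where 2.60% of probe sets rose and 0.608% fell. In that test 4 of 29 members and 1678 of 10358 probe sets had an unadjusted p below 0.05.

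PheRS-m was the lightest member in each period, with 25.6 and 29.6%, 34.7 and 29.3%, and 33.5 and 26.5% of its polysomal signal in fractions 10-12. The mean of its 2 gradients peaked at fraction 7 at 0-2 hours and at fraction 8 later. Replicate 1 peaked at fractions 7, 8 and 9 over the periods, and replicate 2 at fraction 8 in each. Fraction 8 held 15.6% ± 0.558 of the PheRS-m signal at 4-6 hours, while the means of most cytosolic members peaked in fraction 11 or 12. Of 15 cytosolic members 12, 14 and 14 did so over the 3 periods, and of 14 mitochondrial members 8, 8 and 6. Single gradients could differ from the mean. At 8-10 hours LysRS, SerRS and TrpRS peaked in fraction 11 in replicate 1 and in fraction 10 in replicate 2. Peaks were not counted over all tested genes.

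**Figure D5:**
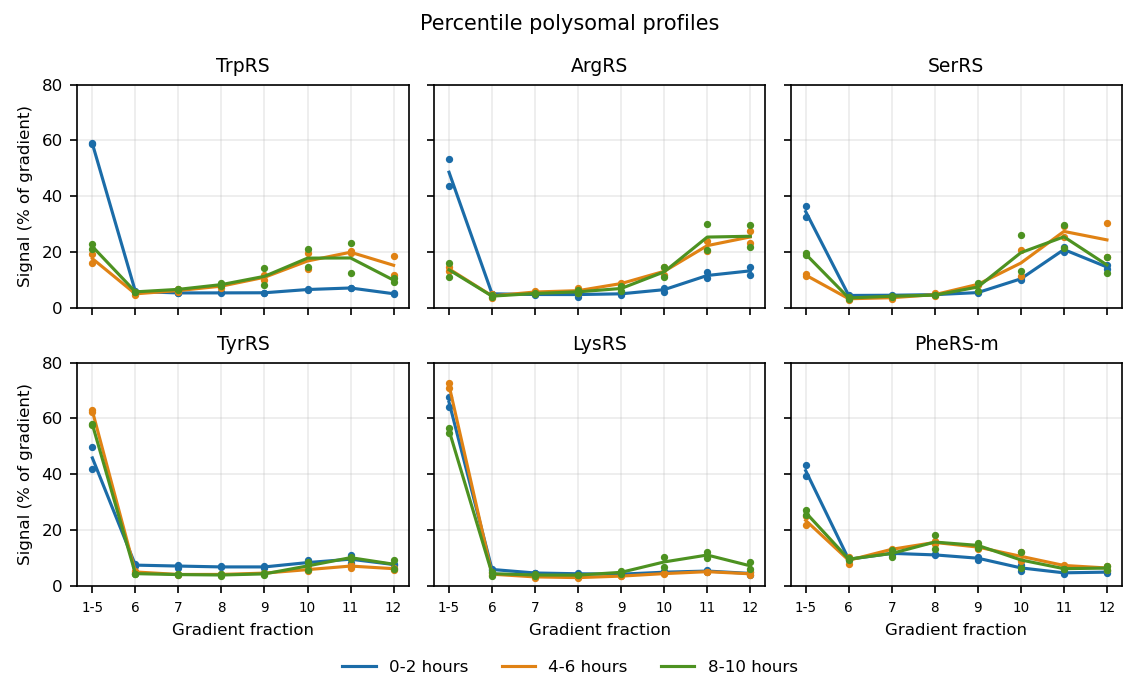
Percentile polysomal profiles of 6 synthetase mRNAs: percentage of the gradient's signal (vertical) in the pool of fractions 1-5 and in each of fractions 6 to 12 (horizontal), points for the 2 gradients and lines for their mean, coloured by period. TrpRS, ArgRS and SerRS leave fractions 1-5 for fractions 10-12 after 0-2 hours. TyrRS and LysRS lie mostly in fractions 1-5 in the later periods, and the mean line of PheRS-m peaks in fraction 7 or 8.

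The light pool was compared between gradients with and without EDTA. Each period had 1 EDTA array for this pool, so its spread was not measured: the errors and adjusted p of limma rest on the untreated pairs, like which the lone array was taken to vary. In the pool of fractions 1-5, 6 of 29 members were higher with EDTA at 4-6 hours, where 12.9% of probe sets rose and 3.49% fell. They were ArgRS, SerRS, ThrRS, TrpRS, AspRS-m and MetRS-m. At 8-10 hours 4 of 29 were, namely ArgRS, SerRS, TrpRS and AspRS-m (12.6% and 3.52% of probe sets). The members' share at 8-10 hours was thus close to that of all probe sets. SerRS had 6.26 and 6.15 without EDTA and 8.51 with it at 4-6 hours, 4.94-fold higher (log2 difference 2.31 ± 0.27, adjusted p = 0.0028). At 8-10 hours it had 8.04 and 8.13 without and 9.78 with EDTA, 3.23-fold higher (adjusted p = 0.00716). ArgRS was 3.04-fold and 3.88-fold higher in these periods (adjusted p = 0.0113 and 0.00759), TrpRS 2.56-fold and 2.69-fold (0.00928 and 0.00913), and AspRS-m 3.35-fold and 2.21-fold (0.00943 and 0.0442). The heavy EDTA pools were not low for these mRNAs. At 4-6 hours SerRS had 8.51 in EDTA fractions 1-5 and 8.25 in EDTA fractions 10-12, ArgRS 8.56 and 8.85, and AspRS-m 9.73 and 10.55. Signals of different EDTA pools are each relative to the other mRNAs of their own array. The same holds for the light pool with and without EDTA, so higher or lower with EDTA is relative to other mRNAs there.

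In limma's test at 0-2 hours 11 of 29 members and 2464 of 10358 probe sets had an unadjusted p below 0.05. After adjustment no member was higher with EDTA and 2 were lower (6.33% and 2.36% of probe sets). They were AsnRS-m, from 7.68 and 7.73 to 6.52 (log2 difference -1.19 ± 0.28, adjusted p = 0.0318), and LeuRS-m, from 9.47 and 10.02 to 8.42 (-1.33 ± 0.32, adjusted p = 0.0374). The EDTA calls leaned on single arrays. At 0-2 hours no member was called without either untreated array of 0-2 or of 4-6 hours and 5 without either of 8-10 hours, and at 4-6 hours SerRS alone was called without replicate 1 of that period. The difference in the EDTA effect between periods passed in limma for 0 of 29 members. It passed for 0% of probe sets between 0-2 and 4-6 hours, 0.0676% between 0-2 and 8-10 hours and 0.0193% between 4-6 and 8-10 hours. An unadjusted p below 0.05 was found for 10, 11 and 1 of 29 members in the 3 contrasts. Of 10358 probe sets 1801, 2045 and 661 had one.

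Of 15 other genes of tRNA charging and delivery that were listed, 12 had a probe set of their own. Their mean occupancy was 50.0% ± 3.19 at 0-2 hours, 64.9% ± 0.715 at 4-6 hours and 68.1% ± 0.0575 at 8-10 hours. From 0-2 to 4-6 hours 7 of 12 rose (GluProRS, alpha-PheRS, beta-PheRS, AIMP1, AIMP3, GatB and Slimp) and 1 fell (mEFTu2), against the 26.3% and 19.7% of probe sets given above.

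The subunits of cytosolic phenylalanyl-tRNA synthetase behaved alike in direction. alpha-PheRS had 49.2 and 51.2% at 0-2 hours, 82.4 and 82.8% at 4-6 hours, and 81.5 and 81.4% at 8-10 hours (first interval, Logit change 1.55 ± 0.17, adjusted p = 3.82e-06). beta-PheRS had 29.5 and 33.8%, then 66.0 and 66.2%, then 63.7 and 70.2% (1.44 ± 0.18, adjusted p = 1.18e-05). GluProRS, a fused enzyme for glutamate and proline, had 48.2 and 39.6%, then 61.5 and 64.4%, then 58.9 and 70.0% (0.78 ± 0.20, adjusted p = 0.0047).

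Of the scaffold proteins of the multi-synthetase complex, AIMP1 had 26.9 and 26.5% at 0-2 hours, 57.8 and 61.5% at 4-6 hours, and 71.6 and 66.6% at 8-10 hours (1.40 ± 0.18, adjusted p = 1.22e-05). AIMP3 had 41.3 and 51.3%, then 74.7 and 70.3%, then 77.7 and 75.5% (1.12 ± 0.19, adjusted p = 0.000159), and AIMP2, with 59.6 and 71.5%, then 71.1 and 70.6%, then 64.6 and 68.4%, passed no test.

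GatA and GatB are subunits of the mitochondrial amidotransferase that turns glutamate on a tRNA into glutamine. GatB rose from 39.3 and 46.1% to 68.9 and 73.9% (1.22 ± 0.18, adjusted p = 5.48e-05), whereas GatA had 52.7 and 62.1%, then 53.1 and 54.9%. Slimp, an insect relative of mitochondrial seryl-tRNA synthetase that does not charge tRNA, had 58.5 and 68.7%, then 86.8 and 78.6%, then 87.4 and 83.1%. Of the factors that carry charged tRNA to the ribosome, mEFTu1 had 52.4 and 56.4%, then 60.1 and 62.1%, then 72.2 and 73.9%, and rose over the whole span (0.82 ± 0.17, adjusted p = 0.000935). mEFTu2 fell from 59.5 and 70.4% to 51.3 and 49.3% in the first interval (-0.61 ± 0.20, adjusted p = 0.0186), and eEF1alpha2, with an unfractionated signal of 4.57 and 4.71 at 0-2 hours and so near background then, passed no test of occupancy.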

How the data were processed

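Values of all 66 arrays were used as the authors deposited them: log2 signals made by RMA, which corrects background, quantile-normalizes arrays and summarizes probes into 18952 probe sets, of which 13647 had 1 gene symbol, 402 several and 4720 none (183 were controls). Quantile normalization makes each value relative to other mRNAs of the same fraction. Per the study's methods, the gradient arrays received equal volumes of RNA, so that the pool stands for the average of fractions 1-5, and the unfractionated arrays a set mass of RNA from separate homogenates.

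Groups came from the sample labels. Occupancy, Logit, polysome position, unfractionated signal and EDTA effect were compared by limma (3.58.1, under R 4.3.3) over 10358 probe sets (8006 genes). These ranked in the upper 50% by mean signal over the gradients of 1 or more periods. P-values were adjusted by Benjamini-Hochberg per contrast, with a threshold of 0.05. Methods' classes were a Logit above 1.5 with an SD above 0.5 (translated), or below -0.15 with an SD below 1 (untranslated). An EDTA filter of the methods was not applied. The labels call replicates biological; the number of arrays limits precision. Deviations of unfractionated arrays from their period means correlated between equal replicate numbers (r = 0.146, 0.249 and 0.577), so those numbers were taken as pairs in an alternative fit; those of the Logit did not (-0.041, -0.287 and -0.089). The fits were run on simulated data with planted shifts and independent noise between probe sets, which does not measure their error rates in these data. The members, gene lists and tests were chosen with earlier results of these data known. All members were accounted for. Values by gradient were given for members past the threshold in an occupancy contrast, for the 3 highest and 3 lowest occupancies of a period and for amino acids with both kinds of enzyme, and up to 5 of the largest changes were named in each abundance, position and EDTA contrast. The other members' occupancies were added to these. Of the list of other charging genes 12 of 15 had a probe set of a single symbol.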

Additional observations from a re-analysis of the deposited data

How the results depend on the processing

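The values rest on 2 gradients and 2 unfractionated arrays a period and on 1 EDTA array of the pool a period. RMA sets each array to a common distribution, so an occupancy is relative to other mRNAs of the same fractions, and signals close to the receptors' level (SerRS-m from 4-6 hours, TrpRS-m at 4-6 hours, GluRS-m and MetRS-m at 8-10 hours, among others) bound what an occupancy can show. No call of a named member reversed under any alternative tried. Over all pairs of a called member and an alternative, 506 occupancy calls kept their direction and side of the threshold and 42 were lost, against 548 and 82 for abundance, 122 and 56 for polysome position and 94 and 24 for EDTA. The promoter motif search was not run, since no promoter sequence was used here.

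Leaving out 1 gradient at a time gave 15 to 18 members called in occupancy for 4-6 against 0-2 hours (18 with all gradients), 0 to 2 for 8-10 against 4-6 hours (2) and 16 to 22 for 8-10 against 0-2 hours (20). In the second of these contrasts 1 member was called with each array centred on its median, 1 with fractions 6 and 7 counted as non-polysomal, 1 among the top 25% of signal and 0 with the receptors' background subtracted. For abundance the counts in the same order were 15 to 25 (24), 2 to 15 (12) and 11 to 23 (18), and the last was 10 among the top 25% of signal. For polysome position they were 0 to 6 (3), 0 in each case (0) and 1 to 11 (12), and with the position defined as fractions 11-12 over 6-10 the first was 1 and the last 5. For EDTA they were 0 to 5 at 0-2 hours (2), 1 to 9 at 4-6 hours (6) and 3 to 4 at 8-10 hours (4). The EDTA effect differed between periods for 1 member with a variance trend and for 1 without the filter on signal, against 0.

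The mean occupancy of cytosolic minus mitochondrial members at 0-2 hours was 2.56 percentage points with fractions 6 and 7 as non-polysomal and 1.30 over all probe sets of the members, and 0.408 to 1.12 without 1 gradient. At 4-6 hours it was 4.45 with fractions 6 and 7 as non-polysomal, and negative with the pool counted once (-0.857), with background subtracted (-0.512) and over all probe sets (-0.681), with -0.15 to 0.385 without 1 gradient. At 8-10 hours it was 5.97 with fractions 6 and 7 as non-polysomal and 0.425 to 4.94 without 1 gradient.

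With the replicate number as a block in limma (the replicate block), 17, 2 and 19 members were called in the 3 occupancy contrasts against 18, 2 and 20. The calls lost were those of SerRS-m in the first (adjusted p = 0.0717) and TyrRS in the last (0.0516). Deviations of the Logit did not go with the replicate numbers, which are therefore only numbers there. Polysome position had 4, 0 and 12 calls, IleRS-m being added in the first contrast (0.0367). Abundance had 24, 13 and 20, and beside the changes in AsnRS, TrpRS, AspRS-m and TrpRS-m given with the results the replicate block changed no other call.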
